A study of Homo sapiens with 6 samples.

Results

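The snoRNA host genes are spliced RNAs, most of them non-coding, that carry small nucleolar RNAs (snoRNAs) in their introns. Members were the rows of the deposited gene table named SNHG with a number, together with GAS5, DANCR, ZFAS1, MIR17HG and CYTOR, which gave 29 of 58735 rows. They were followed in 6 RNA-seq libraries of RPE-1, an immortalized line of human retinal pigment epithelium. In the cells used, CETN2 carries GFP, which marks centrioles, and PLK4, the kinase that starts centriole duplication, is under an rtTA promoter that responds to doxycycline. In 3 libraries (siControl) the cells had received a scramble siRNA, and in 3 (siSON) an siRNA against SON, which resides in nuclear speckles and helps splice weak introns. Both groups had received 1 µg/mL doxycycline to induce PLK4, so no library shows the cells without induction. Whether the line is a single clone, and whether the replicates were separate cultures, is not given in the sources used here, and p-values measure only the spread between these libraries.

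When a host RNA is spliced, the excised intron is debranched and trimmed, and the snoRNA inside it is kept by its protein partners. Box C/D snoRNAs guide ribose methylation and H/ACA snoRNAs guide pseudouridylation of ribosomal RNA, whereas the related scaRNAs act on spliceosomal RNAs in Cajal bodies. The joined exons of many of these hosts hold only short reading frames and are cleared by nonsense-mediated decay when ribosomes reach them. Several hosts are also classed with the terminal oligopyrimidine (TOP) RNAs, which begin with a C followed by a run of pyrimidines and whose translation follows cell growth.

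The label was checked against annotation. In GENCODE release 29, 25 of the 29 members held at least 1 snoRNA or scaRNA gene on their own strand, and the members together held 131 snoRNA, 5 scaRNA and 9 miRNA genes. GAS5 had no such gene in that release, but 11 snoRNA genes lie within its span in RefSeq. MIR17HG and CYTOR held miRNA genes only (6 and 1), and SNHG27 held none, so these 3 are hosts by the rule and not by a snoRNA gene inside them.

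The start sites of 8 hosts are shown for a feature that the naming rule did not use, the letters around the first transcribed base. They are the 6 that began with a C and a run of pyrimidines in RefSeq, and SNHG16 and SNHG17, which rose most and had neither marked motif in RefSeq. Each line runs from 45 bases before the RefSeq start to 25 bases from it onwards (GRCh38.p14), and capitals mark TATA between 40 and 21 bases upstream and a start at C followed by at least 4 bases that are C or T.
SNHG12: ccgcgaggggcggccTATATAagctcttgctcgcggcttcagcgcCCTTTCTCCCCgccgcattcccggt
SNHG5: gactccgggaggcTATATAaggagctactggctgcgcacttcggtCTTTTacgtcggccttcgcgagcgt
SNHG19: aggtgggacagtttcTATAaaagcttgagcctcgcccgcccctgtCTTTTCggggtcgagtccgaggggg
ZFAS1: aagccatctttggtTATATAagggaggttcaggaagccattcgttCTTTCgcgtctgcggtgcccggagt
SNHG4: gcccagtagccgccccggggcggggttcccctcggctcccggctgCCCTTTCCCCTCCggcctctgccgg
SNHG18: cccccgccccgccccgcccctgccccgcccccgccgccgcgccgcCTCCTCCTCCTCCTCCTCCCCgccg
SNHG16: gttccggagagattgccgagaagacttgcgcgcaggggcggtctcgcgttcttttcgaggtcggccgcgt
SNHG17: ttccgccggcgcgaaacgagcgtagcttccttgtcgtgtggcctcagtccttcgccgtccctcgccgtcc

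The windows lie at chr1:28581849-28581918 (SNHG12, minus strand), chr6:85678709-85678778 (SNHG5, minus), chr16:2155334-2155403 (SNHG19, minus), chr20:49278597-49278666 (ZFAS1, plus), chr5:139274056-139274125 (SNHG4, plus), chr5:9546155-9546224 (SNHG18, plus), chr17:76557719-76557788 (SNHG16, plus) and chr20:38435304-38435373 (SNHG17, minus). Of the 25 members with a RefSeq window, 6 began with the pyrimidine start, beside 4.07% of 35116 windows. TATA, which reads the same on both strands, was found in 6 of the 25 and in 5.91% of all windows, and 4 members had both, against 0.165% of all windows. GAS5 is the textbook TOP host, but its RefSeq start lies upstream of the transcript starts in GENCODE 29. There, 6 of its 29 transcripts began with the pyrimidine start, as in the first bases of GAS5-219 (chromosome 1, minus strand).
GAS5-219: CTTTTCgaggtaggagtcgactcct

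Library totals ran from 54572365 to 69764836 counts. SON averaged 297 CPM (SD 14.5, n = 3) in the siControl libraries and 67.6 CPM (SD 2.495, n = 3) in the siSON libraries, and every later ± is likewise an SD over the 3 libraries of a group. CPM are counts scaled by TMM to a common library size. Among 11 epithelial and mesenchymal markers, VIM and FN1 were the most abundant and CDH1 and EPCAM were nearly absent (0.105 and 0.110 CPM in siControl). The list summed to 17437 to 19980 CPM in siControl and 17270 to 18634 CPM in siSON, mostly VIM and FN1, so the sum hides changes of other markers. From siControl to siSON, mean CPM was higher for KRT18 (220 to 615), KRT8 (594 to 754) and CDH2 (359 to 568). It was lower for KRT7 (23.4 to 13.9), CAV1 (656 to 471), THY1 (551 to 371) and TGFBI (489 to 242). Of 12 markers of differentiated pigment epithelium, 4 (TYR, DCT, TTR and RGR) had 0 counts in all libraries and RPE65 averaged 0.144 CPM in siControl and 0 in siSON. That list summed to 51.5 to 53.3 CPM in siControl and 74.1 to 83.4 CPM in siSON, mostly MITF, OTX2 and BEST1, which were higher in siSON, while PMEL (2.06 to 0.201 CPM) and LRAT (0.433 to 0.0692 CPM) were lower. Markers of blood, endothelium and liver summed to 2.34 to 3.34 CPM in siControl and 0.610 to 1.21 CPM in siSON, with 3 of 7 at 0. PLK4 had a log2 fold change of -0.36 (edgeR adjusted p 0.0143), and CETN2 had 0.38 (adjusted p 5.89e-05), which turned to -0.035 under cyclic loess. The part of any of these in the host genes' values was not tested. Read counts per gene do not separate fewer cells of a kind from less RNA per cell.

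SON knockdown moved the hosts in opposite directions rather than as a block. SNHG16 and SNHG17 rose more than 2-fold, SNHG14 fell to 23.0% of its control level, and SNHG9, SNHG19, SNHG3 and SNHG4 fell to between 38.3% and 61.7% of theirs. GAS5, which with SNHG16 had the highest CPM among the members in siControl, differed 1.13-fold. Of the 29 members, 26 passed the filter on low counts and 21 were called changed in edgeR's quasi-likelihood test at an adjusted p under 0.05, 10 higher and 11 lower, while 71.7% of all 16591 genes tested were called, 35.2% higher and 36.5% lower. The share of hosts called stood near that of all genes. The 3 siSON values lay wholly to one side of the 3 siControl values for 19 of the 26 hosts and for 75.1% of all genes. Among those called, 2 hosts were at least 2-fold higher (8.72% of all genes) and 3 at least 2-fold lower (20.5%). MIR17HG and SNHG21 reached the filter's minimum in every siControl library but in only 1 and 2 siSON libraries, so that their place among the 26 leaned on the siControl side. Without them 20 of 24 were called, 10 in each direction. SNHG27 had 0 counts in all 6 libraries, which allows up to 0.0402 to 0.0590 CPM in a library for counting error only, and SNHG22 had 0 to 3 counts. SNHG28 also had 0 counts, but all its exonic bases are shared with other annotated genes on its strand, so its 0 sets no limit on its level.

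The median log2 fold change of the hosts tested was -0.14, beside -0.027 over all genes tested. When libraries were scaled by their totals only (library size alone), the median shift over all genes was -0.20, and it was 0.14 under cyclic loess normalization. Scaled by totals only, 6 hosts were called higher and 11 lower, beside 4441 and 7351 of all genes. Cyclic loess gave 8 higher and 9 lower, beside 6044 and 5640 of all genes. Other long non-coding genes of the members' biotypes (lincRNA, antisense, processed transcript and sense overlapping) had a median of -0.57, and 56.4% of 2075 such genes were called, 13.7% higher and 42.7% lower. Against a 1.5-fold change, which is a harder test, 6 members were called, namely SNHG14, SNHG9, SNHG19, SNHG16, SNHG17 and SNHG18, while 36.9% of all genes were.

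**Figure D1:**
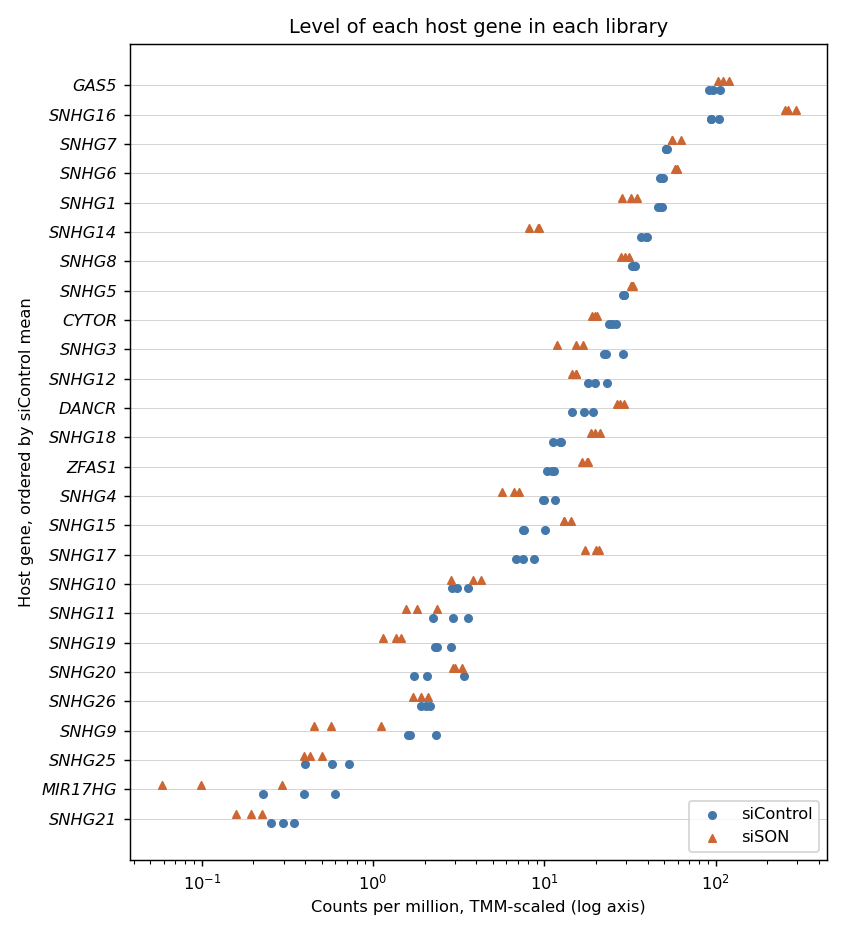
TMM-scaled CPM (log axis) of the 26 host genes tested, with 1 circle for each siControl library and 1 triangle for each siSON library, ordered by the siControl mean. The groups stand apart for SNHG16, SNHG17 and SNHG14, and lie within or close to each other for GAS5, SNHG26 and SNHG10.

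The hosts together took 597 ± 29.4 CPM in siControl and 767 ± 44.1 CPM in siSON. Without SNHG16 the sums were 499.6 ± 22.9 and 497.4 ± 25.02 CPM. SNHG16 made up 16.3% ± 0.272 of the summed level in siControl and 35.2% ± 1.06 in siSON, and SNHG14 went from 6.48% ± 0.289 to 1.157% ± 0.0646. Per kilobase of annotated exon, a scale that lets genes be compared with each other, the highest control levels were those of SNHG6 (38.9 ± 0.825 CPM per kb), SNHG8 (36.1 ± 0.670), GAS5 (27.1 ± 1.996) and SNHG16 (18.1 ± 1.20). In siSON the order was SNHG16 (50.3 ± 3.93 CPM per kb), SNHG6 (47.2 ± 0.914), SNHG8 (31.9 ± 1.64) and GAS5 (30.6 ± 2.27). In siSON, SNHG16 and SNHG6 differed by less than the SD of SNHG16, and SNHG8 and GAS5 by less than theirs.

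Of 9 hosts that carry box C/D snoRNAs only, 5 were called higher, 3 lower and 1 was not called. SNHG16 (ENSG00000163597; GRCh38 chromosome 17, 76557766 to 76565348, plus strand), host of SNORD1A, SNORD1B and SNORD1C, had 104.7, 93.4 and 93.8 CPM in siControl replicates 1 to 3. In siSON it had 293.5, 253.0 and 263.2 CPM. Every siSON library lay above every siControl library, and the group means of 97.3 ± 6.44 and 269.9 ± 21.1 CPM differed 2.77-fold (log2 fold change 1.47, SE 0.07, edgeR adjusted p 1.40e-08). In the annotation, 70.7% of the SNHG16 span lies in an exon of at least 1 transcript. AC015802.6, which shares exonic bases with SNHG16 on the other strand (30.6% of the SNHG16 exons), had 0.347 ± 0.0805 CPM in siControl and 0.833 ± 0.425 CPM in siSON.

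SNHG18, ZFAS1, SNHG6 and SNHG5 were the other box C/D hosts called higher. SNHG18 (chromosome 5, 9546200 to 9550609, plus strand), host of SNORD123, had 12.3, 11.2 and 12.5 CPM in siControl and 21.2, 19.8 and 18.8 CPM in siSON, with no overlap (log2 fold change 0.73, SE 0.09, edgeR adjusted p 1.38e-05). ZFAS1 (chromosome 20, 49278178 to 49295738, plus strand), host of the SNORD12 group and head to head with ZNFX1, had 11.1, 11.4 and 10.4 CPM in siControl and 18.1, 17.7 and 16.5 CPM in siSON. Its groups did not overlap either (log2 fold change 0.67, SE 0.08, edgeR adjusted p 2.32e-05), and 26.1% of its exonic bases are shared with genes on the other strand. The next pair moved little. SNHG6, host of SNORD87, had 48.5 ± 1.03 and 58.8 ± 1.14 CPM, with a difference of 0.28 on the log2 scale (edgeR adjusted p 0.000938) that came to 0.08 (adjusted p 0.212) with library size alone and 0.13 (limma adjusted p 0.0547) under cyclic loess. SNHG5, host of SNORD50A and SNORD50B, went from 29.04 ± 0.161 to 32.4 ± 0.427 CPM (log2 fold change 0.16, edgeR adjusted p 0.0412), and its sign turned with library size alone (-0.041).

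SNHG14 showed the largest fall among the hosts tested. It is a long transcript of the imprinted region on chromosome 15 (24978583 to 25419462, plus strand), carries the SNORD115 and SNORD116 arrays and runs antisense to UBE3A. It had 39.8, 39.4 and 36.7 CPM in siControl and 9.27, 9.17 and 8.18 CPM in siSON. The libraries of the groups lay far apart, with means of 38.6 ± 1.71 and 8.88 ± 0.601 CPM (log2 fold change -2.12, SE 0.08, edgeR adjusted p 3.83e-09). SNRPN, which shares exonic bases with it on the same strand, had 4.94 ± 0.509 and 3.54 ± 0.0967 CPM (log2 fold change -0.48, edgeR adjusted p 0.00571). UBE3A, the ubiquitin ligase gene on the other strand, had 103.6 ± 5.96 and 80.02 ± 2.98 CPM (log2 fold change -0.37, edgeR adjusted p 0.000189).

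SNHG1 and SNHG19 were the other box C/D hosts called lower. SNHG1 (chromosome 11, 62851988 to 62855914, minus strand), host of SNORD22 and of SNORD25 to SNORD31, had 48.7, 47.9 and 46.0 CPM in siControl and 32.0, 34.6 and 28.3 CPM in siSON. All 3 siSON values were below all 3 siControl values (log2 fold change -0.59, SE 0.08, edgeR adjusted p 4.09e-05). SNHG19 (chromosome 16, 2154797 to 2155358, minus strand), a short host of SNORD60, had 2.29, 2.85 and 2.36 CPM in siControl and 1.36, 1.45 and 1.14 CPM in siSON (log2 fold change -0.92, SE 0.18, edgeR adjusted p 0.000840). SNHG26, host of SNORD93, had 2.03 ± 0.132 and 1.90 ± 0.194 CPM, and its groups overlapped (adjusted p 0.626).

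**Figure D2:**
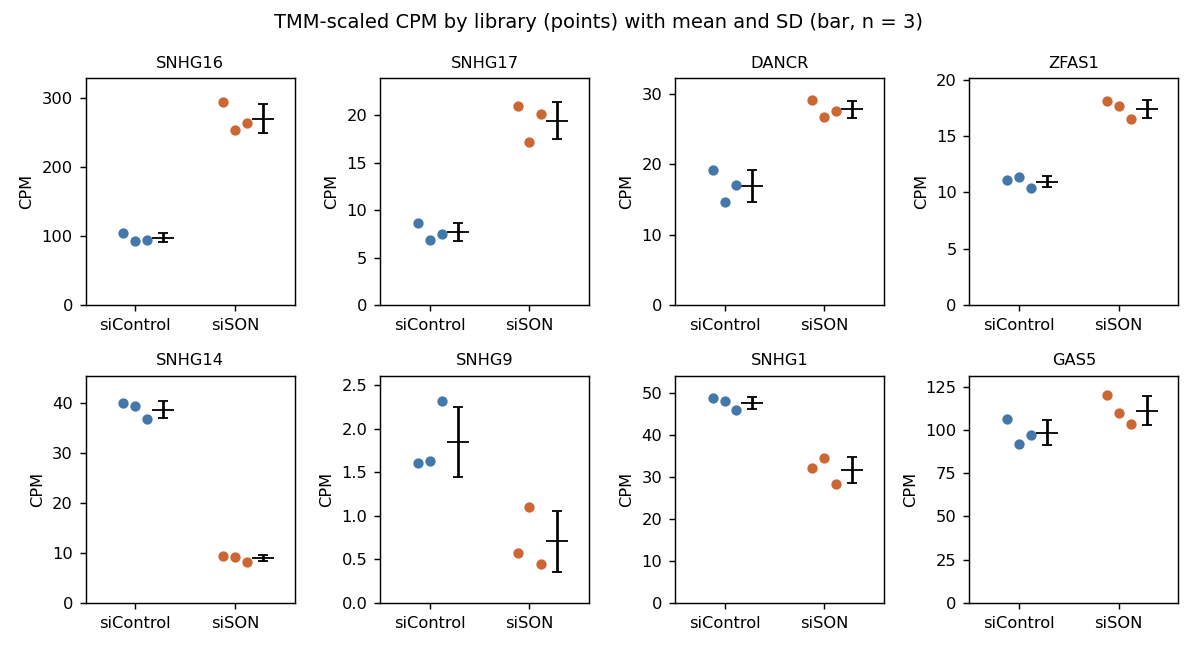
TMM-scaled CPM of 8 host genes, each point a library and the bar the mean with its SD (n = 3), on linear axes that start at 0. SNHG16, SNHG17, DANCR and ZFAS1 lay higher in all 3 siSON libraries, SNHG14, SNHG9 and SNHG1 lay lower in all 3, and the groups of GAS5 overlapped.

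Of 9 hosts that carry H/ACA snoRNAs only, 4 were called higher and 5 lower. SNHG17 (ENSG00000196756; chromosome 20, 38420588 to 38435353, minus strand), host of SNORA71A to SNORA71D, had 8.70, 6.86 and 7.48 CPM in siControl and 20.95, 17.2 and 20.1 CPM in siSON. Every siSON library lay above every siControl library, and the means differed 2.53-fold (log2 fold change 1.34, SE 0.11, edgeR adjusted p 9.56e-07). Its neighbour SNHG11, which carries SNORA71E and SNORA60 and lies upstream of SNHG17 on the plus strand of chromosome 20 (38446578 to 38450921), pointing away from it, had a negative log2 fold change. SNHG11 had 3.60, 2.94 and 2.22 CPM in siControl and 2.36, 1.55 and 1.81 CPM in siSON, with overlapping groups (log2 fold change -0.61, SE 0.22, edgeR adjusted p 0.0273). Under cyclic loess the SNHG11 value was -0.24 (limma adjusted p 0.331), and the call was also lost without siControl replicate 1 (adjusted p 0.0956) or 2 (0.0530) and without siSON replicate 2 (0.109) or 3 (0.0732).

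DANCR (chromosome 4, 52712404 to 52720351, plus strand), a host of SNORA26 known for holding back cell differentiation, had 19.1, 14.6 and 17.1 CPM in siControl and 29.1, 26.7 and 27.6 CPM in siSON. The groups did not overlap (log2 fold change 0.71, SE 0.10, edgeR adjusted p 5.56e-05). SNHG15 (chromosome 7, 44983023 to 44986961, minus strand), host of SNORA9, had 10.05, 7.63 and 7.55 CPM in siControl and 14.3, 13.03 and 13.04 CPM in siSON (log2 fold change 0.68, SE 0.12, edgeR adjusted p 0.000371). SNHG7, host of SNORA17A and SNORA17B, was called higher by a small margin, with 51.6 ± 0.294 and 57.9 ± 4.37 CPM (log2 fold change 0.17, edgeR adjusted p 0.0393), and with library size alone its value was -0.030. Without siSON replicate 1, which had 63.0 CPM beside 55.4 and 55.5 CPM in the other two, the SNHG7 log2 fold change was 0.12 (edgeR adjusted p 0.0909).

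The H/ACA hosts called lower were SNHG9, SNHG3, SNHG4, SNHG8 and SNHG11. SNHG9 (chromosome 16, 1964959 to 1965509, plus strand), host of SNORA78 beside the ribosomal protein gene RPS2, had 1.61, 1.64 and 2.32 CPM in siControl and 0.569, 1.11 and 0.452 CPM in siSON (log2 fold change -1.39, SE 0.31, edgeR adjusted p 0.00202). SNHG3 (chromosome 1, 28505980 to 28510892, plus strand), host of SNORA73A and SNORA73B, had 28.6, 23.0 and 22.2 CPM in siControl and 16.8, 15.3 and 11.9 CPM in siSON (log2 fold change -0.75, SE 0.13, edgeR adjusted p 0.000454). For both of these hosts every siSON library was below every siControl library. SNHG4 (chromosome 5, 139274102 to 139284899, plus strand), host of SNORA74A and SNORA74D, had 10.5 ± 0.966 and 6.45 ± 0.727 CPM (log2 fold change -0.70, edgeR adjusted p 0.000245). SNHG8, host of SNORA24, had 33.3 ± 0.618 and 29.5 ± 1.51 CPM (log2 fold change -0.18, edgeR adjusted p 0.0358).

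Among the 3 hosts that carry both classes, SNHG12 was called lower, GAS5 higher, and SNHG25 was not called. SNHG12 (chromosome 1, 28578538 to 28583132, minus strand), host of SNORA16A, SNORA44, SNORA61 and SNORD99, had 23.3, 19.8 and 18.0 CPM in siControl and 15.2, 15.3 and 14.5 CPM in siSON (log2 fold change -0.44, SE 0.10, edgeR adjusted p 0.00209). GAS5 (ENSG00000234741; chromosome 1, 173863900 to 173868882, minus strand), a host named for its rise in growth-arrested cells, had 106.3, 92.0 and 97.0 CPM in siControl and 120.0, 110.1 and 103.6 CPM in siSON. Its groups overlapped, and its call (log2 fold change 0.18, SE 0.07, edgeR adjusted p 0.0447) did not hold under every scaling. It was lost, with the sign turned, with library size alone (-0.021, edgeR adjusted p 0.799) and under cyclic loess (-0.070, limma adjusted p 0.418). It was also lost without siControl replicate 2 (adjusted p 0.243), siControl replicate 3 (0.126), siSON replicate 1 (0.0951) or siSON replicate 2 (0.0678). SNHG25, host of SNORD104 and SNORA50C, had 0.567 ± 0.161 and 0.440 ± 0.0544 CPM (adjusted p 0.353).

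None of the 3 scaRNA hosts tested was called in edgeR's test with TMM scaling, and 0 of them had an unadjusted p under 0.05. DESeq2 and limma-voom also called 0. Under cyclic loess SNHG10 (0.53, limma adjusted p 0.0168) and SNHG20 (0.76, limma adjusted p 0.00893) were called higher. SNHG10, host of SCARNA13, had 3.20 ± 0.366 CPM in siControl and 3.65 ± 0.721 CPM in siSON (log2 fold change 0.20, SE 0.17, edgeR adjusted p 0.326). SNHG20, host of SCARNA16, had 3.41, 2.08 and 1.74 CPM in siControl and 3.29, 2.91 and 2.99 CPM in siSON (log2 fold change 0.35, SE 0.23, edgeR adjusted p 0.195). The siControl libraries of SNHG20 spread around the siSON ones, and without siControl replicate 1 its log2 fold change was 0.66 (adjusted p 0.00659). SNHG21, host of SCARNA15, had 8 to 24 counts per library (log2 fold change -0.63, edgeR adjusted p 0.170).

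The members without a named snoRNA were CYTOR, MIR17HG, SNHG27 and SNHG28, the last with 1 unnamed snoRNA gene. CYTOR (chromosome 2, 87454781 to 87636740, plus strand), a long non-coding RNA named as a regulator of the cytoskeleton, had 26.3, 23.8 and 24.7 CPM in siControl and 20.2, 19.0 and 19.7 CPM in siSON. Its groups did not overlap (log2 fold change -0.35, SE 0.07, edgeR adjusted p 0.00136). MIR17HG (chromosome 13, 91347820 to 91354579, plus strand), the primary transcript of the growth-promoting miR-17-92 cluster, had 42, 25 and 17 counts in siControl and 17, 3 and 5 counts in siSON. The groups overlapped, and the call (log2 fold change -1.39, SE 0.58, edgeR adjusted p 0.0493) was lost without siControl replicate 1 (-1.02, adjusted p 0.184) or replicate 2 (-1.43, 0.0828), and without siSON replicate 2 (-1.01, 0.166) or replicate 3 (-1.159, 0.141).

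The main strands of the MIR17HG miRNAs are given in RefSeq (GRCh38.p14) form to show what the transcript encodes, with the seed (bases 2 to 8) in capitals. The miRNAs themselves were not measured here.
hsa-miR-17-5p: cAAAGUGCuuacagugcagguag
hsa-miR-20a-5p: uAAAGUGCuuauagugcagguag
hsa-miR-18a-5p: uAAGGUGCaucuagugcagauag
hsa-miR-19a-3p: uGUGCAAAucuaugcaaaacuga
hsa-miR-19b-3p: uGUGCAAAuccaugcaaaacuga
hsa-miR-92a-3p: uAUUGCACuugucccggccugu
The first pair shares 1 seed, and the miR-19 pair shares another.

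**Figure D3:**
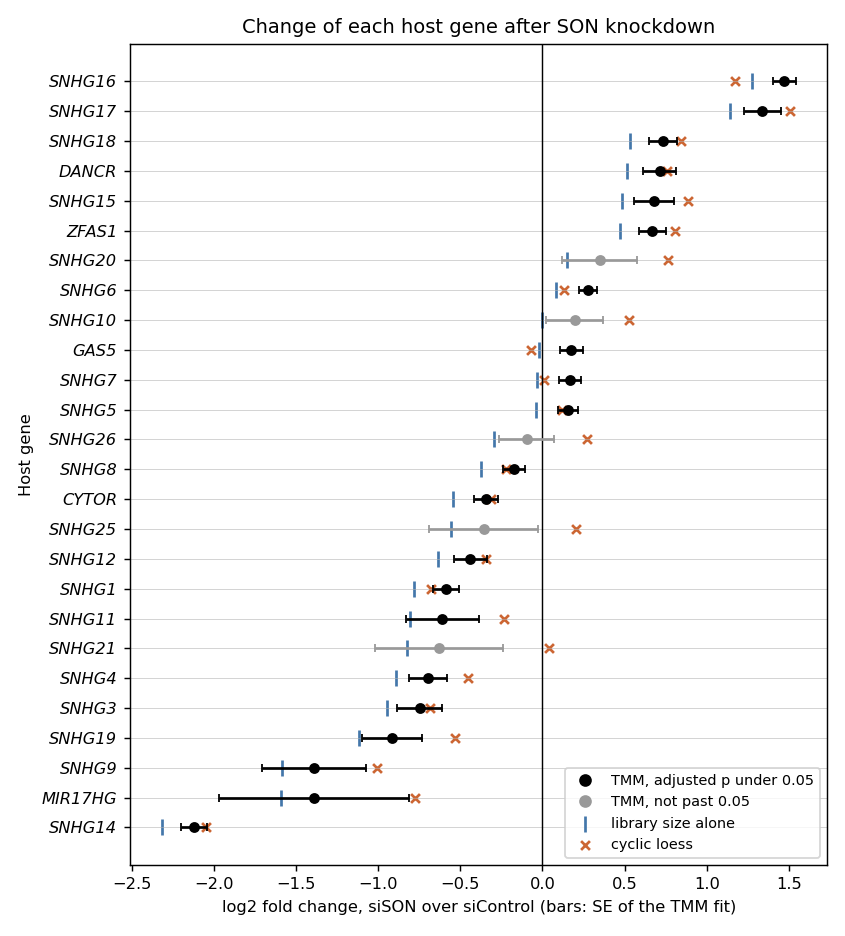
Log2 fold change (siSON over siControl) of each of the 26 hosts tested, with the SE of the TMM fit as a bar, in black where the adjusted p was under 0.05 and in grey where it was not. Vertical ticks and crosses give the value under scaling by library size alone and under cyclic loess, and the points near 0, such as GAS5, SNHG7 and SNHG5, are the ones that meet or cross 0 under another scaling.

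Rows for the small RNAs inside the hosts bear on what the host counts hold. Of 145 such rows, 52 overlapped an exon of their host on the same strand, and only 1 of these, SNORD30 in SNHG1, had any count (11 over the 6 libraries). How reads on bases shared by a host and a small RNA row were counted is not given. As for SNHG28, a 0 there sets no limit on the small RNA. Such bases made up 48.6% of the exonic bases of SNHG25 and 23.0% of those of SNHG9, and reads on them may be missing from the host too. Of the 93 rows outside host exons, 33 had counts, 1593 in all, and 9 passed the filter. A read over such a row can come from the snoRNA, an unspliced host or a trimmed intermediate, and these cannot be told apart. For hosts such as SNHG1, SNHG12 and SNHG15, 95.6%, 92.8% and 92.6% of the span counts as exon because intron-retaining transcripts are annotated. Reads from retained introns there would be counted to the host, except perhaps on bases shared with a small RNA row. Such reads were not measured separately.

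Some of these rows passed the filter through the group where they were high. SCARNA13 (chromosome 14, 95533355 to 95533629, minus strand) reached the filter's minimum in all 3 siSON libraries but not in every siControl library. It had 11, 20 and 9 counts in siControl and 46, 46 and 56 counts in siSON. These correspond to 0.198 ± 0.103 and 0.929 ± 0.158 CPM, with all siSON libraries above all siControl libraries (log2 fold change 2.24, SE 0.39, edgeR adjusted p 0.000315). Its host SNHG10 was not called, at 0.20; the difference between the row and its host was not tested.

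The sequences of the called C/D and scaRNA rows, and of a C/D snoRNA of SNHG16, the host that rose most, are shown from the GENCODE 29 transcripts in DNA letters, with TGATGA (box C) and the last CTGA (box D) in capitals, or the ACA that lies 3 bases from the end of an H/ACA-type RNA.
SCARNA13: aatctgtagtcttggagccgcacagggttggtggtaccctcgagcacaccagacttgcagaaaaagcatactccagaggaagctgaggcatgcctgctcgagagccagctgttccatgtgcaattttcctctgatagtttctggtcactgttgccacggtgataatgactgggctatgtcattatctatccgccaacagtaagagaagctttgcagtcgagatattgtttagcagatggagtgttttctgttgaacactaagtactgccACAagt
SNORD104: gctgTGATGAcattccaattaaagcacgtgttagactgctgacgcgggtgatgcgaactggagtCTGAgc
SNORD116-24: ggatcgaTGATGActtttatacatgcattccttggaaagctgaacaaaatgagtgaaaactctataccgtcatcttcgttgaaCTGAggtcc
SNORD1B: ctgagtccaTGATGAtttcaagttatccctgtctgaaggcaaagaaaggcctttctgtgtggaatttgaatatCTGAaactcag

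SNORD104 (chromosome 17, 64146083 to 64146152), inside SNHG25, had 99, 99 and 79 counts in siControl and 55, 43 and 39 counts in siSON (log2 fold change -0.66, SE 0.23, edgeR adjusted p 0.0263). The call was lost without siControl replicate 1 (adjusted p 0.0562) or 2 (0.0947), without siSON replicate 2 (0.0644) or 3 (0.0793), and under cyclic loess (limma, 0.399). SNORD116-24 (chromosome 15, 25094037 to 25094128), inside SNHG14, had 14, 10 and 12 counts in siControl and 3, 0 and 2 counts in siSON (edgeR adjusted p 0.0100), and not past 0.05 under cyclic loess (limma, 0.0935). It reached the filter's minimum in 0 siSON libraries, so it passed through its siControl counts. SNORA71C, inside SNHG17, had 30, 11 and 19 counts in siControl and 7, 5 and 7 counts in siSON, and it reached the minimum in 3 siControl libraries and 0 siSON libraries. That row was called with an edgeR adjusted p of 0.0388, but not with DESeq2 (0.0784), limma-voom (0.0614), no filter (0.0778) or cyclic loess (-0.36, limma adjusted p 0.449), nor without any of 5 libraries, all but siControl replicate 2 (0.0601 to 0.177). The other rows that passed, SNORA73B, SNORA71B, SNORD99, SNORD12B and SNORD123, had adjusted p-values of 0.158, 0.956, 0.346, 0.672 and 0.643.

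**Figure D4:**
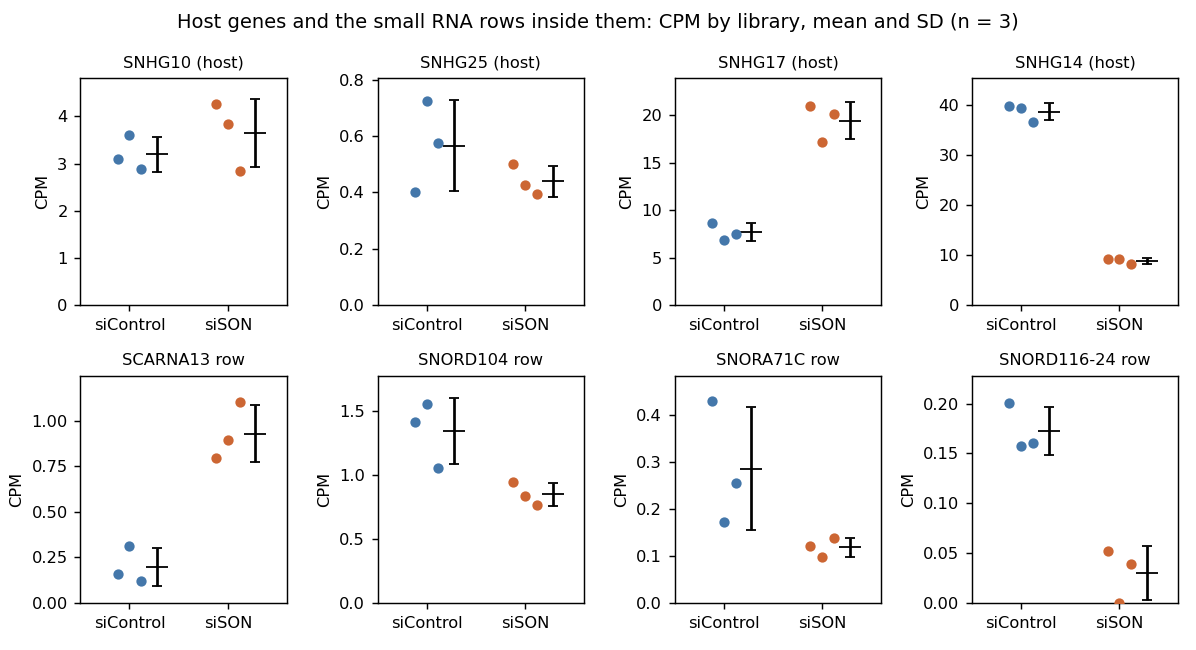
CPM by library of 4 hosts (upper row) and of a small RNA row inside each (lower row), points for libraries and bars for the mean with its SD (n = 3), on linear axes from 0. SCARNA13 lay higher in all siSON libraries while SNHG10 overlapped, and SNORA71C, a row whose call was lost under 10 alternatives, lay lower while SNHG17 lay higher.

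Several hosts share a start region with a protein-coding gene on the other strand. By position alone, 7 members had such a start within 1000 bases, and these genes were chosen after the members' values were seen. SLC3A2, the amino acid transporter chain whose start lies 188 bases from that of SNHG1, rose from 123 ± 4.02 to 257 ± 17.0 CPM (log2 fold change 1.07, SE 0.06, edgeR adjusted p 3.84e-08) while SNHG1 fell. TRAF7, 340 bases from SNHG19, had a log2 fold change of -0.70 (edgeR adjusted p 8.34e-07), on the same side as its partner. ZBTB37, which starts 800 bases inside GAS5, had -0.45 (edgeR adjusted p 0.00666), which was not called under cyclic loess (-0.21, limma adjusted p 0.145). SEMA5A, 125 bases from SNHG18, had -0.13 (edgeR adjusted p 0.251), and was called with library size alone (-0.32, adjusted p 0.0114). RPS2, 99 bases from SNHG9, had 0.25 (edgeR adjusted p 0.000206), but 0.057 (adjusted p 0.209) with library size alone and -0.22 under cyclic loess, and ZNFX1, beside ZFAS1, had 0.18 (adjusted p 0.0154), which turned to -0.022 with library size alone and -0.11 under cyclic loess. ACAA2, beside the nearly silent SNHG22, had -1.32 (edgeR adjusted p 1.10e-05). RCC1, which with SNORA73A shares the strand and 10.96% of the exonic bases of SNHG3, rose by 1.53 on the log2 scale while SNHG3 fell.

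The start motif, read at the RefSeq start, did not sort the hosts by direction. Of the 6 hosts with the pyrimidine start in RefSeq, SNHG18, ZFAS1 and SNHG5 had positive log2 fold changes (0.73, 0.67 and 0.16, the last not under library size alone). SNHG12, SNHG4 and SNHG19 had negative ones (-0.44, -0.70 and -0.92). SNHG16 and SNHG17, which rose most, had neither motif as read from the RefSeq start. A run of CTTTTC lies shortly past that start in SNHG16, and 2 of its 8 GENCODE transcripts began with the pyrimidine start. For SNHG17 it was 0 of 8. Other hosts outside the 6 had such transcripts too, among them SNHG6 (3 of 5), SNHG25 (2 of 2) and SNHG3 (1 of 3). Direction was not compared by GENCODE starts. Across the 26 hosts the Spearman correlation of the log2 fold change with the mean level was 0.390, with exon number 0.036, with the median intron length 0.095, with GC content 0.084 and with the exonic share of the span -0.13. These points share the same 6 libraries and their scaling, and the values are a description.

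Protein-coding snoRNA hosts were examined for comparison, with 50 such genes listed and all tested. The list holds many ribosomal protein and translation factor genes, and 43 were called, 35 higher and 8 lower (median log2 fold change 0.33), while 77.4% of all protein-coding genes tested were called. Scaled by totals only, the list split into 25 higher and 13 lower, and under cyclic loess it was 18 and 21 with a median of -0.039, so the direction of this list depended on the scaling. TNPO2, a nuclear import receptor, fell from 130 ± 5.43 to 19.5 ± 2.73 CPM (log2 fold change -2.73, SE 0.09, edgeR adjusted p 2.27e-09). CHD8, a chromatin remodeller, fell by 1.27 on the log2 scale (edgeR adjusted p 6.38e-09), and IPO7, which imports ribosomal proteins, rose by 0.94 (adjusted p 3.04e-08). RCC1, the exchange factor of the Ran GTPase, rose from 45.9 ± 2.41 to 132 ± 15.3 CPM (log2 fold change 1.53, SE 0.08, edgeR adjusted p 3.16e-08).

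Genes listed as snoRNP proteins and assembly factors were called in 18 of 22 cases, 12 higher and 6 lower (median 0.32), also near the 77.4% of all protein-coding genes. Scaled by totals only it was 10 and 7, and cyclic loess gave 12 and 7. ZNHIT6, an assembly factor of box C/D particles, fell from 27.6 ± 0.734 to 6.76 ± 0.510 CPM (log2 fold change -2.03, SE 0.09, edgeR adjusted p 6.63e-09). PIH1D1, a subunit of the R2TP chaperone complex, fell by 1.75 (edgeR adjusted p 7.38e-08). AAR2, which is known for its part in assembling the U5 spliceosomal particle and not for snoRNAs, and SNU13, the protein that first binds the box C/D motif, rose by 1.07 and 0.76 on the log2 scale (edgeR adjusted p 4.58e-08 and 7.35e-07).

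Nonsense-mediated decay factors were called in 21 of 26 cases, 18 higher and 3 lower (median 0.51), a share called near the 77.4% of all protein-coding genes. Scaled by totals only, 14 were higher and 5 lower, and cyclic loess gave 15 and 5 with a median of 0.27. DHX34, a helicase of the pathway, rose from 18.4 ± 2.22 to 90.2 ± 3.84 CPM (log2 fold change 2.30, SE 0.09, edgeR adjusted p 3.56e-09). SMG5 and UPF2 rose by 1.41 and 1.29 on the log2 scale (edgeR adjusted p 5.88e-09 and 1.80e-08). Several of these factors' own messages are known to be pathway targets.

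Protein-coding genes known as targets of the pathway moved in both directions. Of 27 tested, 19 were called, 11 higher and 8 lower (median 0.076), close to the 71.7% of all genes, and more were lower than higher when scaled by totals only (9 higher, 13 lower) or by cyclic loess (10 higher, 15 lower), but not with RLE factors (11 higher, 8 lower). CHAC1, a glutathione-degrading enzyme induced by ATF4, rose by 2.91 and ATF4 itself by 1.27 on the log2 scale (edgeR adjusted p 5.16e-09 and 5.83e-09). CDKN1A, the cyclin-dependent kinase inhibitor, fell by 1.19 (edgeR adjusted p 1.01e-08). SMG5, already named, belongs to both lists.

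**Figure D5:**
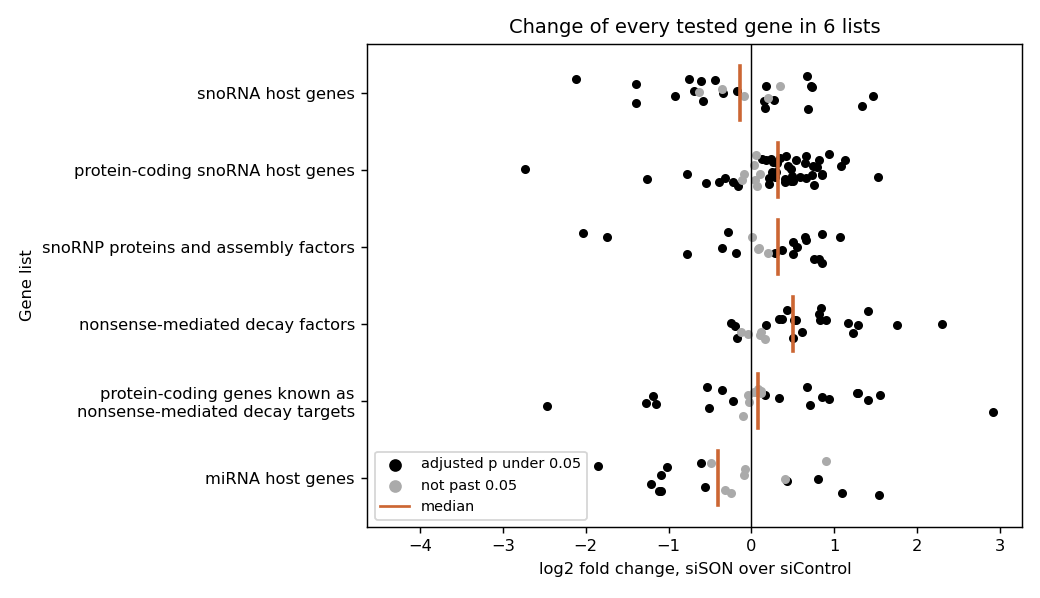
Log2 fold change (siSON over siControl, TMM scaling) of every tested gene in 6 lists, black where the adjusted p was under 0.05 and grey where not, with the list median as a vertical bar. The hosts spread to both sides of 0 with a median of -0.14, while the medians of the protein-coding hosts and of the decay factors are 0.33 and 0.51 under this scaling.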

How the data were processed

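The members and gene lists were chosen with earlier results of these data known. For each of the 6 libraries the authors deposited raw counts, whole numbers of reads by gene without normalization. The submitters' processing notes name cutadapt 1.16, STAR 2.5.2a, featureCounts 1.6.2, DESeq2 1.28.1 and hg38; the annotation, strand setting and treatment of multi-mapping reads are not given in the sources used here. All 58735 identifiers matched GENCODE 29, which gave positions. Without a known strand setting, overlapping genes cannot be told apart. Totals were 54572365 to 69764836 counts, and 3 counts equal 0.0402 to 0.0590 CPM (counting error only; reads had no stated molecular identifiers).

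In R 4.3.3, edgeR 4.0.16 fitted a robust quasi-likelihood model of group alone to all genes past filterByExpr (minimum count 10) with TMM scaling, with Benjamini-Hochberg adjustment over all of them. SE is the absolute log2 fold change over the square root of F. CPM are TMM-scaled counts. On simulated data for the siSON and siControl comparison, over 16591 genes, 68.7%, 86.6% and 97.0% of genes changed 1.5-, 2- and 4-fold were recovered. The simulation changed 200 genes and gave every gene the same dispersion. In the data 71.7% of genes were called, so these shares do not give the recovery in this comparison. Alternatives were DESeq2 1.42.0, limma-voom (limma 3.58.1), RLE factors, library size alone, cyclic loess, other filters, a replicate block and leaving out each library. Named were SON, PLK4, CETN2, all members, the 4 genes of smallest adjusted p per list, and up to 10 small RNA rows inside members with a mean of at least 10 counts in either group; genes sharing starts or exons with members were added after values were seen. A gene that this rule names is not reported here.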

Additional observations from a re-analysis of the deposited data

How the results depend on the processing

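Of 413 member values under them, 405 kept their direction, and 14 of the 21 called members kept call and direction throughout: SNHG16, SNHG17, SNHG18, DANCR, SNHG15, ZFAS1, SNHG14, SNHG9, SNHG19, SNHG3, SNHG4, SNHG1, SNHG12 and CYTOR. SON itself ranged from -2.18 to -2.10 over the fits that left out a library. The 21 members called became 15 to 19 when a library was left out (7 to 9 higher, 8 to 11 lower), and 6 in the test against a 1.5-fold change, which asks for a larger effect. Those called higher fell from 10 to 6 with library size alone, and over all genes from 5834 to 4441. The median (-0.14) moved to -0.33 with library size alone, to 0.100 at a mean count of at least 50, which drops low members, and to 0.027 under cyclic loess; it was -0.18 to -0.10 with a library left out. With library size alone the sign turned for GAS5 (-0.021), SNHG5 (-0.041), SNHG7 (-0.030), SNHG10 (-0.0022) and the neighbour ZNFX1 (-0.022). Under cyclic loess it turned for GAS5 (-0.070), SNHG26 (0.27), SNHG21 (0.042), SNHG25 (0.21), SNORA71B (0.44), SNORD99 (0.14), SNORD12B (0.29), RPS2 (-0.22), ZNFX1 (-0.11) and CETN2 (-0.035). With a library left out, SNORA71B ranged from -0.44 to 0.16 and SNORD12B from -0.72 to 0.11. The cause was not tested. SNHG8 and SNHG11 lost their calls without siControl replicate 2 (adjusted p 0.0510 and 0.0530), siSON replicate 2 (0.105 and 0.109) or siSON replicate 3 (0.164 and 0.0732). SNHG8 also lost its call without siControl replicate 3 (0.0878), and SNHG11 without siControl replicate 1 (0.0956). SNHG5 lost its call without any library but siSON replicate 1, and SNHG7 without any of the siControl libraries or siSON replicate 1. Same-numbered libraries correlated at 0.194, 0.0461 and 0.118 in their deviations from the group mean, and different-numbered ones at -0.138 to 0.0286. Each same-numbered value was the highest for both of its libraries. The main fit nevertheless has no replicate term, and whether equal numbers mark a shared batch was not tested. With the replicate block 21 members were called, 10 higher and 11 lower, the median was -0.14, and SON was -2.14. The block also ended the call of SNORA71C (-1.22, adjusted p 0.0515). Over all genes the block moved the calls from 11888 to 12313. At these depths, members tested that were under 1 CPM in siControl (SNHG25, SNHG21 and MIR17HG) rest on at most 46 counts a library.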

Other observations

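Host genes of miRNAs, which like the snoRNA hosts carry small RNAs within a long transcript, were listed by name alone. Of 55 rows named MIR with HG, other than MIR17HG, 20 passed the filter and 13 were called by edgeR, of which 4 were higher and 9 lower, with a median log2 fold change of -0.40. The share called lies between the 71.7% of all genes and the 56.4% of other long non-coding genes of the snoRNA hosts' biotypes. Scaled by totals only it was 3 and 11, and cyclic loess gave 6 and 6. MIR31HG rose from 7.08 ± 0.174 to 15.1 ± 1.21 CPM (SD over 3 libraries; log2 fold change 1.09, SE 0.09, edgeR adjusted p 1.18e-06). MIR34AHG, whose miRNA is a target of p53, and MIR155HG fell by 1.09 and 1.22 on the log2 scale (edgeR adjusted p 8.33e-05 and 8.74e-05). MIR210HG, a transcript known to rise in hypoxia, had 0.640 ± 0.0438 CPM in siControl and 0.0309 ± 0.0292 CPM in siSON, the latter under the level of 3 counts.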
